A study of Homo sapiens with 54 samples.

Results

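The clustered histone genes were followed here across all 18 conditions of the study. They were taken as the rows whose symbol starts with HIST1H, HIST2H, HIST3H or HIST4H and whose mean adjusted read count over the 54 libraries was at least 1, which kept 52 of 73 such rows among 27470 genes. An adjusted read count is a read count brought to 1 common library size, 5585170 reads. The rule used the mean level over all conditions and no difference between conditions. Just inside the limit were HIST1H3E with a mean of 1.05, HIST1H2AL with 1.18 and HIST4H4 with 1.20, and just outside were HIST1H4K with 0.94, HIST1H2BL with 0.766 and HIST1H4I with 0.419. The 52 members held 5 genes for the linker histone H1, 13 for H2A, 15 for H2B, 10 for H3 and 9 for H4. Of these, 44 lie in the HIST1 cluster on chromosome 6, 5 in HIST2 and 2 in HIST3 on chromosome 1, and 1 in HIST4 on chromosome 12.

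The libraries came from 2 human triple-negative breast cancer cell lines, SUM1315 (BRCA1 mutant) and MDA-MB-468 (BRCA1 wild type). Each line gave 9 conditions of 3 libraries. Parental cells were untreated (control) or treated overnight with olaparib, a PARP inhibitor (SUM1315 cells 8 µM, MDA-MB-468 cells 3 µM), with cisplatin (CDDP), a platinum drug that crosslinks DNA, at a lower or a higher dose (SUM1315 cells 2 or 4 µM, MDA-MB-468 cells 1 or 2.5 µM), or with olaparib and either CDDP dose. Olaparib-resistant (OlaR) cells, raised by exposure to rising olaparib doses and kept in 25 µM (SUM1315) or 15 µM (MDA-MB-468), received no CDDP or either of the same CDDP doses. Each line had 1 resistant derivative, and whether it was a clone is not given in the sources used here, so a change in OlaR cells belongs to that derivative. OlaR cells also differed from olaparib-treated parental cells in the dose and length of exposure, which cannot be told apart from resistance. No label said that the 3 libraries of a condition came from separate cultures, so p-values measure the spread between libraries, which may be technical. In bulk RNA, fewer cells in S phase and less histone RNA per cell cannot be told apart.

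Replication-dependent histone genes supply the core histones H2A, H2B, H3 and H4, which form the nucleosome, and the linker histone H1, which binds between nucleosomes. They are transcribed mainly in S phase, when new DNA has to be packaged. Their mRNAs are the only animal mRNAs that normally end in a conserved stem-loop, bound by SLBP, instead of a poly(A) tail. The libraries were primed with oligo(dT) and read 1 tag per 3′ end, so they catch polyadenylated forms and messages with adenine-rich stretches to which oligo(dT) can anneal. The levels below are levels of such forms, not of all histone mRNA.

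The 3′ end that these genes share is shown first, because it is the feature that sets the assay's view of them. A stem of 6 bases that starts with GG, with a loop of 4 bases, stood within 100 bases after the stop codon in 49 of the 51 members searched, against 122 of 19919 protein-coding genes (0.612%). HIST1H2AG and HIST1H2AK had no exact match in this window, and the pseudogene HIST2H2BC has no stop codon to search from. The stem-loop began 23 to 63 bases after the stop codon and came in 7 different sequences. In the lines below, read 5′ to 3′ from GRCh38, capitals mark the stem-loop.
HIST1H1C: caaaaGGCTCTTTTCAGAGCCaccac
HIST1H4J: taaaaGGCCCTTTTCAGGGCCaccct
HIST1H2BK: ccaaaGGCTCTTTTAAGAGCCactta
HIST2H2AC: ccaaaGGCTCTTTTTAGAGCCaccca
HIST1H2BI: ccaaaGGCTCTTCTAAGAGCCaccca
HIST1H3E: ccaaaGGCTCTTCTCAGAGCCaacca
HIST1H4L: tcaaaGGCCCTTCTCAGGGCCaccca
These lie at chr6:26055739-26055764 (minus strand), chr6:27824454-27824479 (plus), chr6:27146361-27146386 (minus), chr1:149887386-149887411 (plus), chr6:26273387-26273412 (plus), chr6:26225591-26225616 (plus) and chr6:27873148-27873173 (minus). The sequence of HIST1H1C was shared by 29 members, that of HIST1H4J by 8 members, all of them H4 genes, and that of HIST1H2BK by 8 members, among them HIST1H2BD, HIST1H2BC and HIST1H2BF. The other 4 sequences were each found in 1 member.

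The members differed more in their adenines than in their stem-loops. HIST1H4C, by far the most abundant member, had 11 adenines in 12 adjoining bases just before its stem-loop, starting at base 359 of its 405-base transcript. The other 8 H4 members had at most 6 or 7. These stretches are shown for 5 of the members with the most adenines, with the window of 12 bases in capitals.
HIST1H4C: gagaacttcAAAAAACAAAAAcaaaaaaac
HIST1H1D: ctacgatgtAGAAAAAAACAAcagccgtat
HIST1H1C: atgatgtggAGAAAAACAACAgccgtatca
HIST1H1E: gctggagccAAAAAAGCGAAAagcccgaaa
HIST1H2AJ: tgaaaagcgCATAAAAACAAAggctctttt
Their positions are chr6:26104282-26104311 (plus strand), chr6:26234692-26234721 (minus), chr6:26056188-26056217 (minus), chr6:26156883-26156912 (plus) and chr6:27814315-27814344 (minus). The window starts at base 443 of 476 of the transcript in HIST1H2AJ and at 564 of 787 in HIST1H1E. In HIST1H1D it starts at base 276 of 776 and in HIST1H1C at 263 of 731, far from the 3′ end. Windows with at least 9 adenines were found in 8 members, 7 of them among the 10 members of highest mean level and 1 among the other 42. The median of the mean levels was 123 in these 8 members and 5.59 in the rest. Across the 52 members Spearman's rho of mean level and adenines was 0.44, a description over genes that share classes and sequence. The polyadenylation signal AATAAA was also searched. In the top 10 it first lay 56 bases after the stop codon in HIST1H1C, 65 in HIST1H2BD, 156 in HIST1H2AM and 234 in HIST1H4C. It lay at 732 in HIST1H2AJ, 859 in HIST1H1B, 903 in HIST1H1D, 1565 in HIST1H1E and 1605 in HIST1H2BK. HIST2H2AC had none within 3000 bases. Of the lower members, HIST1H4J had it at 16 and HIST1H2AL at 270. Where in each transcript the reads began was not analysed here, so adenines and signal were not told apart.

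**Figure D1:**
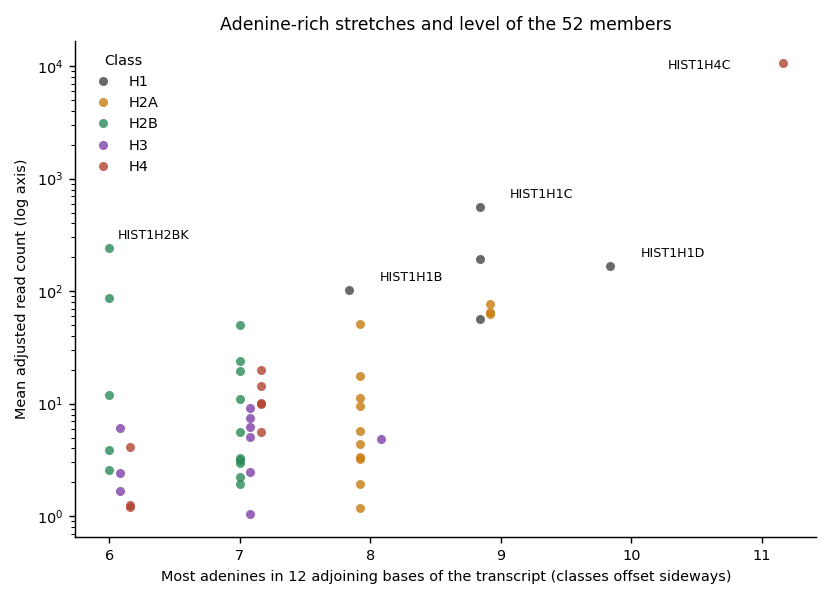
Mean adjusted read count over the 54 libraries (log axis) against the most adenines in any 12 adjoining bases of the transcript, 1 point per member, colored by class. HIST1H4C stands alone at 11 adenines and a mean of 10602, and the 8 members with at least 9 adenines include HIST1H1C, HIST1H1E and HIST1H1D.

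The upstream sequence is shown for 3 of the members that the results turn on: HIST1H2BH and HIST1H2AJ, which were higher in resistant SUM1315 cells, and HIST1H1B, which was read almost only in MDA-MB-468. HIST1H4C had no entry among the promoters, so its upstream sequence is not shown. The lines give the 250 bases before the RefSeq start, 5′ to 3′, and capitals mark CCAAT (the box bound by NF-Y), TATAAA (a form of the core promoter element), ATTTGCAT (the octamer bound by OCT1) or AAACACA (the H1 box) on either strand. None of these motifs contains another.
HIST1H2BH: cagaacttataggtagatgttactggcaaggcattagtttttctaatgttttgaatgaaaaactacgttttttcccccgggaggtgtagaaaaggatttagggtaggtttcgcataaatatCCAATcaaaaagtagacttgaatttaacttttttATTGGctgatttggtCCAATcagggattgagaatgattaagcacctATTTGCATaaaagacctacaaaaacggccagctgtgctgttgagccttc
HIST1H2AJ: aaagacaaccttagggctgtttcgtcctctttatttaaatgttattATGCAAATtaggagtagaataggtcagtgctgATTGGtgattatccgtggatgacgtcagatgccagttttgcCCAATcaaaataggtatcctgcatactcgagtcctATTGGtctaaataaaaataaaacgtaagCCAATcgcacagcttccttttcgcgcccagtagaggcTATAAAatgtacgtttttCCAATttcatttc
HIST1H1B: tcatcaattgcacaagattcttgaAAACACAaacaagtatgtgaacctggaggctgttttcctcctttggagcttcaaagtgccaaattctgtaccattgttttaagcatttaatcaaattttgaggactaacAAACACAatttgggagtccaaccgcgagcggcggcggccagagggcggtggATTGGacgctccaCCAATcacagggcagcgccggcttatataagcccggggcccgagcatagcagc
They lie at chr6:26251364-26251613 (plus strand), chr6:27814778-27815027 (minus) and chr6:27867589-27867838 (minus). Counted over windows from 250 bases before to 50 after the start, which 46 members had, CCAAT stood in 87.0% of members against 35.7% of all 27305 promoters, TATAAA in 65.2% against 12%, and ATTTGCAT in 45.7% against 1.8%. CCAAT was in all H1, H2A, H2B and H3 promoters and in 1 of 7 H4 promoters, which do not include that of HIST1H4C. ATTTGCAT was in 9 of 12 H2A and 11 of 14 H2B promoters, and AAACACA in 5 of 5 H1 promoters against 5.76% of all promoters. A match is a description of the letters and not a site of binding.

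The 54 libraries held 2070301 to 9268162 reads (median 6006856.5), and within each line the OlaR libraries were shallower than the parental ones (3446613 to 4665505 against 4977284 to 7540920 in SUM1315, 2070301 to 4676284 against 5574767 to 9268162 in MDA-MB-468). PGR had a median of 0 in both lines, ESR1 of 2.996 in SUM1315 and 51.73 in MDA-MB-468, and ERBB2 of 37.85 and 24.16. In that order, medians of epithelial genes were 0 and 3026 for EPCAM and 0 and 806.4 for CDH1. They were 75.55 and 636.7 for KRT8 and 320 and 680.6 for KRT18. Of the basal or mesenchymal genes, VIM (11450 and 25.16), KRT17 (1023 and 268.7) and KRT14 (12.34 and 8.547) had higher medians in SUM1315. KRT5 (2.474 and 498.3) and EGFR (759.7 and 2332) had higher medians in MDA-MB-468. The batch of each library is not given in the sources used here, and for this reason the comparison of the lines used only their within-line differences. A gene was tested in a line where at least 3 of its 27 libraries reached a value of 10, which 26 members passed in SUM1315 and 34 in MDA-MB-468. Of the members, 24 passed in both lines and 16 in neither. A gene was called where limma's adjusted p was at most 0.05 and the fold was at least 2, and fold changes are on the log2(value + 1) scale, which understates changes of low genes.

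HIST1H4C, which encodes H4, gave 78.2% to 87.6% of the members' summed level in the condition means, and 0.0847% to 0.331% of a library's reads. The H1 genes followed, with means over the 54 libraries of 557.54 for HIST1H1C, 193.8 for HIST1H1E, 168.62 for HIST1H1D, 101.85 for HIST1H1B and 56.9 for HIST1H1A. The most abundant H2B members were HIST1H2BK with 240.15 and HIST1H2BD with 87.5, and the most abundant H2A members were HIST2H2AC with 77.2, HIST1H2AJ with 64.7 and HIST1H2AM with 62.2. The H3 members were low, with HIST1H3C highest at 9.18. In the smaller clusters, HIST3H2A reached 4.39 and HIST4H4 1.20. These are adjusted read counts per gene, and since the libraries read 3′ tags they were not divided by length.

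Some members cannot be fully told apart from near-identical copies by 50-base reads. In HIST1H2AJ 66.3% of the 50-base windows occur also in another gene, mainly HIST1H2AI. The share was 57.2% in HIST1H2BK, 67.8% in HIST1H2AM, which overlaps the span of HIST1H3J, 92.1% in HIST1H4J, shared with HIST1H4K, and 79.5% in HIST2H2BC. It was over 50% in 7 members and 0 in 27, among them HIST1H4C, HIST1H1C, HIST1H1E, HIST1H1D, HIST1H1B and HIST1H2BH. HIST1H4C also lies inside the span of HIST1H2BC on the other strand, and the strand setting of the authors' counting is not given in the sources used here.

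In SUM1315 cells, HIST1H4C was lowest in control cells and highest in OlaR cells without CDDP. Its adjusted read counts were 4950, 4990 and 5334 in control cells, 7192, 6440 and 5699 with olaparib, 10530, 12680 and 10180 with 2 µM CDDP, and 8832, 8536 and 8477 with 4 µM CDDP. Every library of these treatments lay above the control libraries. With olaparib and 2 µM CDDP the values were 11000, 12610 and 10770, and with olaparib and 4 µM CDDP 10240, 8484 and 9601. OlaR cells gave 12680, 12570 and 12230, falling to 8524, 6368 and 8878 with 2 µM CDDP and 5609, 6789 and 7154 with 4 µM CDDP. The 2 µM libraries of parental and OlaR cells lay on opposite sides of their own baselines. In the order of means every pair of neighbors had overlapping libraries, except olaparib alone and control.

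In MDA-MB-468 cells HIST1H4C also rose with each drug but was lowest in OlaR cells. Control cells had 10440, 11200 and 11290, olaparib-treated cells 12600, 13660 and 14180, and cells with 1 and 2.5 µM CDDP 14970, 15120 and 15840, and 18160, 17390 and 17490. Olaparib with 1 µM CDDP gave 15620, 14320 and 14320, and with 2.5 µM CDDP 16130, 16530 and 18400. Every treated parental library lay above the control libraries. OlaR cells had 8051, 7730 and 9860 without CDDP, 7940, 8130 and 7358 with 1 µM and 5947, 6280 and 6244 with 2.5 µM. All OlaR libraries lay below all parental libraries of this line. In the order of means, neighbors overlapped for both conditions with 2.5 µM CDDP in parental cells, for both with 1 µM CDDP in parental cells, and for OlaR cells without and with 1 µM CDDP, and the other neighbors did not overlap.

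**Figure D2:**
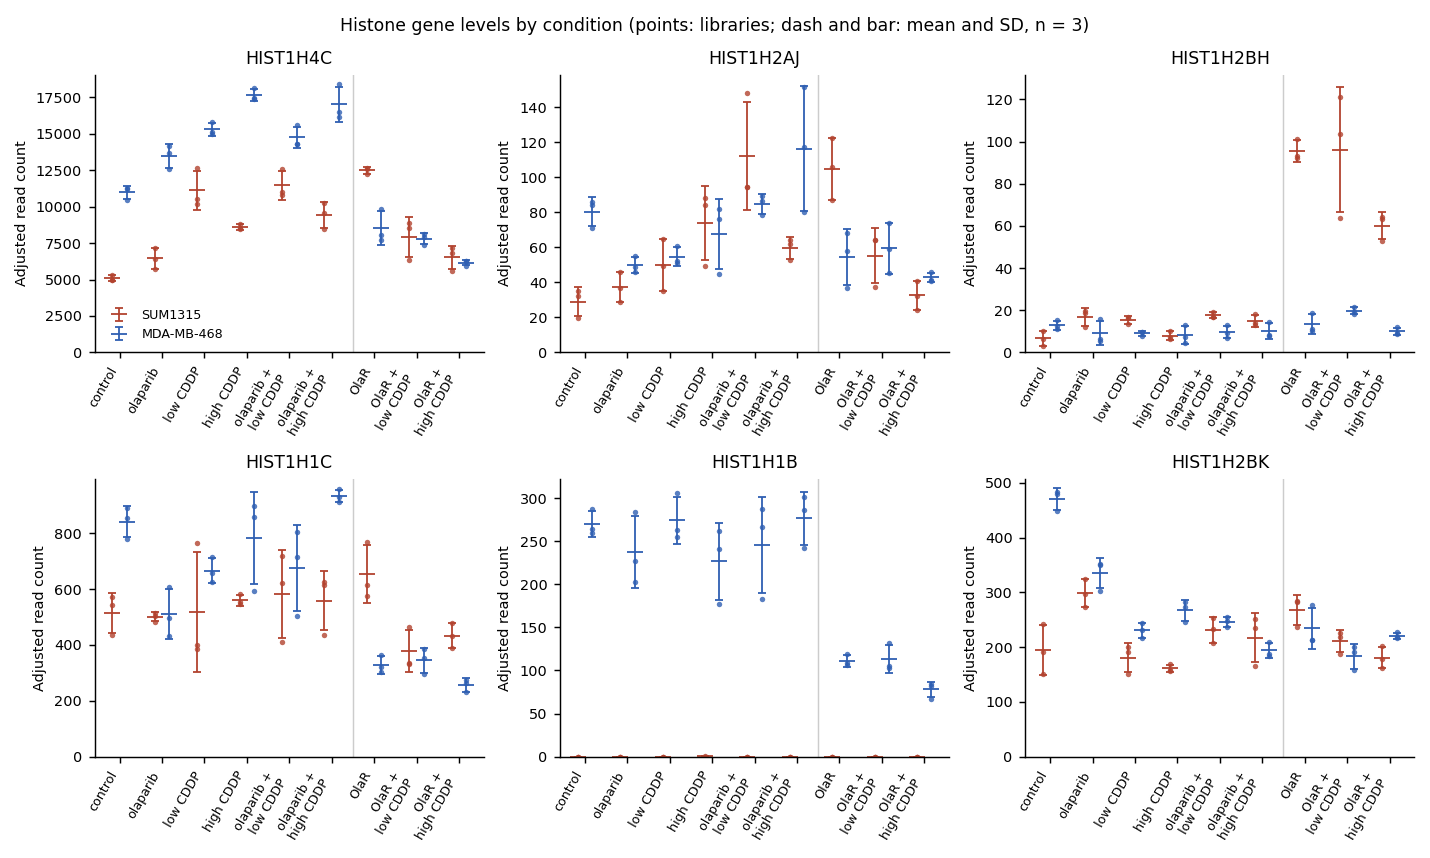
Adjusted read counts of 6 members in the 9 conditions of each line, with points for libraries and a dash and bar for the mean and SD (n = 3), and a grey line between parental and OlaR cells. HIST1H4C rises with CDDP in parental cells of both lines and falls with it in OlaR cells, HIST1H2BH is high only in OlaR SUM1315 cells among these conditions, and HIST1H1B is at or near 0 in SUM1315.

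Olaparib alone raised 2 of the 26 members tested in SUM1315, both H2B genes, while 4.99% of the 13133 genes tested were called higher and 4.36% lower. HIST1H2BD had 25.1, 22.8 and 33.0 in control cells and 48.1, 78.4 and 106.9 with olaparib, and HIST1H2BH had 6.27, 3.16 and 10.3 against 18.7, 19.8 and 11.99. Neither pair of groups overlapped, as in 44.8% of all genes tested. The log2 fold change of HIST1H2BD was 1.44 (SE 0.30, limma adjusted p = 0.000237) and that of HIST1H2BH was 1.32 (SE 0.34, adjusted p = 0.0023). By adjusted p alone 4 of the 26 members were higher and none lower, where 18.9% of genes were higher and 17.1% lower. The members' share was thus not above that of all genes. Of the 26, 9 lay wholly above the control libraries and 1 wholly below. The members' median log2 fold change was 0.391, against -0.003 over all genes tested. Without control replicate 2 only HIST1H2BD was called, a count of 1, and without control replicate 3 the count was 4.

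Lower-dose CDDP raised 3 members in SUM1315 and lowered none by this rule, where 5.41% of genes were called higher and 3.38% lower. HIST1H4C rose 2.18-fold (log2 fold change 1.12, SE 0.11, limma adjusted p = 1.77e-09). HIST1H2BD, at 53.4, 40.6 and 84.9, rose by 1.07 (adjusted p = 0.0053), and HIST1H2BH, at 13.3, 16.1 and 17.0, by 1.23 (adjusted p = 0.00481). Both lay above their control libraries in every replicate, and the groups did not overlap in 42.4% of all genes tested. Of the 26 members, 4 lay wholly above control and none wholly below. By adjusted p alone 4 were higher and none lower, where 19.4% of genes were higher and 14.5% lower. The members' share was thus not above that of all genes. The count fell to 1 without control replicate 2 and was 5 without control replicate 3.

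Higher-dose CDDP raised 7 members in SUM1315, where 7.24% of genes were called higher and 8.16% lower, and called no member lower. They were H2A and H2B genes and 1 H4 gene. HIST1H2AJ had 35.3, 19.8 and 32.0 in control cells and 88.2, 84.4 and 49.6 with 4 µM CDDP. HIST2H2BC, the pseudogene, went from 5.41, 3.13 and 6.19 to 10.4, 19.3 and 21.4, and HIST1H2BI from 3.64, 4.12 and 0.0214 to 15.4, 14.7 and 9.54. These 3 members did not overlap between the groups, as in 52.8% of all genes tested. Their log2 fold changes were 1.32 (SE 0.29, limma adjusted p = 0.000399), 1.59 (SE 0.45, adjusted p = 0.00488) and 2.27 (SE 0.73, adjusted p = 0.0119), and the last was no longer called without control replicate 3. HIST1H2BC rose by 1.01 (SE 0.35, adjusted p = 0.018), but was under a fold of 2 without control replicate 1, control replicate 2 or CDDP replicate 1, and HIST1H2BD rose by 1.00 (adjusted p = 0.0062). HIST1H2AH and HIST1H4H were also called, with 0 to 6 and 0 to 14 reads in the control libraries, and their groups overlapped. HIST1H4C rose by 0.76 (SE 0.11, adjusted p = 1.43e-06), under the fold limit. By adjusted p alone 9 of 26 members were higher and none lower, where 22.2% of genes were higher and 21.7% lower. The members' median was 0.738 against -0.003 over all genes tested, and without control replicate 2 the count was 4.

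Adding CDDP to olaparib, or olaparib to CDDP, moved few members in SUM1315. Against olaparib alone, olaparib with 4 µM CDDP called none of 26 members by limma, where 0.845% of genes were called higher and 0.472% lower. At an unadjusted p under 0.05 there were 4 members, and edgeR and DESeq2 also called 0. Of the 13133 genes tested, 1108 had an adjusted p at most 0.05, so the unadjusted count over all genes was no smaller. HIST1H4C had the one adjusted p under the limit, with a log2 fold change of 0.55 (SE 0.11, adjusted p = 0.00141). Against 4 µM CDDP alone the combination called 1 member, lower, where 1.84% of genes were called higher and 0.716% lower. This was HIST1H2BI, with 15.4, 14.7 and 9.54 under CDDP and 5.97, 1.41 and 0.821 under the combination (log2 fold change -2.16, SE 0.73, limma adjusted p = 0.0467). Those libraries held at most 16 reads of it, and the call was lost, leaving a count of 0, without any one of the 3 CDDP replicates or without replicate 2 or 3 of the combination.

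Resistant SUM1315 cells differed from olaparib-treated parental cells in 7 members. Of the 26 tested, 6 were called higher and 1 lower, where 7.52% of genes were called higher and 9.06% lower, and the members' median log2 fold change was 0.688 against -0.045 over all genes tested. HIST1H2BH, an H2B gene, changed most: its 92.3, 101.4 and 93.0 in OlaR cells stood against 18.7, 19.8 and 11.99 with olaparib, a 5.53-fold difference (log2 fold change 2.47, SE 0.34, limma adjusted p = 3.14e-07). It stayed high with CDDP, at 103.5, 63.8 and 121.4 with 2 µM and 52.7, 63.5 and 64.1 with 4 µM, while the highest library of parental SUM1315 or of MDA-MB-468 cells had 21.7. HIST1H2AJ, an H2A gene, had 122.4, 105.8 and 87.0 against 28.8, 36.6 and 46.0 (log2 fold change 1.49, SE 0.29, adjusted p = 8.05e-05). HIST1H4J, HIST1H4H, HIST1H2AG and HIST1H2AH were also called higher, with log2 fold changes of 1.10, 1.94, 1.85 and 1.55, but the last 3 rested on 1 to 12 reads per olaparib-treated library. HIST2H2BE, an H2B gene of the HIST2 cluster whose 2224-base GENCODE transcript continues past its stem-loop, went the other way. It had 46.8, 47.9 and 40.0 with olaparib and 17.98, 14.1 and 11.9 in OlaR cells, a log2 fold change of -1.57 (SE 0.32, adjusted p = 0.000171). HIST1H4C rose by 0.96 (SE 0.11, adjusted p = 1.63e-08), just under the fold limit. By adjusted p alone 8 members were higher and 1 lower, where 21.6% of genes were higher and 25.7% lower. Without OlaR replicate 2 the count of called members was 4. The OlaR libraries were the shallower ones, and the part of depth in these differences was not tested.

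Adding 4 µM CDDP to resistant SUM1315 cells lowered 8 of the 26 members tested by adjusted p and 2 of them by at least 2-fold. All 26 had a negative log2 fold change, of which 18 did not pass, with a median of -0.795 against 0.001 over all genes tested. By adjusted p alone no member was higher, where 7.13% of genes were higher and 9.61% lower. With the fold limit 0.929% of all genes were called higher and 2.89% lower. HIST1H2AJ fell to 24.3, 41.0 and 32.4, below every OlaR library (log2 fold change -1.68, SE 0.29, limma adjusted p = 0.000109). HIST1H2AM, another H2A gene, went from 82.8, 68.7 and 70.9 to 32.5, 37.6 and 31.3 (log2 fold change -1.11, SE 0.33, adjusted p = 0.0189). Its call was lost without OlaR replicate 1 or without OlaR with CDDP replicate 1 or 3, and the count was 1 without either of the first 2. The linker histone genes HIST1H1D (-0.90), HIST1H1E (-0.82) and HIST1H1C (-0.58) fell, as did HIST1H4C (-0.95), HIST2H2AC (-0.77) and HIST1H2BK (-0.56), with adjusted p of 2.26e-07 to 0.0339. In each of these 8 the groups did not overlap, as in 35.1% of all genes tested.

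The CDDP response of resistant SUM1315 cells differed from that of olaparib-treated parental cells for 4 members, all with a lower value in OlaR cells, by an interaction term with adjusted p at most 0.05. Over all genes tested 1.99% had a higher and 4.41% a lower value. HIST1H4C rose by 0.55 with CDDP under olaparib and fell by 0.95 in OlaR cells, a difference of -1.499 (SE 0.16, limma adjusted p = 3.11e-07). The differences were -2.36 (SE 0.41, adjusted p = 0.000381) for HIST1H2AJ, -1.25 (SE 0.33, adjusted p = 0.02) for HIST1H1E and -1.51 (SE 0.47, adjusted p = 0.0469) for HIST1H2AM. Without replicate 2 or 3 of olaparib with 4 µM CDDP 2 members remained past the limit. HIST1H1E was also lost without olaparib replicate 1.

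In MDA-MB-468, olaparib alone called none of 34 members by limma, where 0.653% of genes were called higher and 1.08% lower. At an unadjusted p under 0.05 there were 11 members, and edgeR and DESeq2 on the recovered reads called 3 each. Of the 13012 genes tested, 2802 had an adjusted p at most 0.05, so the unadjusted count over all genes was no smaller. The shares of all genes called by edgeR and DESeq2 are not given here. By adjusted p alone 1 member was higher and 6 lower, where 12.4% of genes were higher and 9.11% lower. The member that rose was HIST1H4C (log2 fold change 0.30, SE 0.06, adjusted p = 0.000128). The 6 that fell included 3 of the 5 linker genes. HIST1H1C went from 890.6, 852.9 and 779.6 to 430.8, 496.0 and 607.0 (log2 fold change -0.73, SE 0.12, adjusted p = 6.12e-06), and HIST1H1D went from 230.8, 160.7 and 201.1 to 117.5, 113.2 and 120.9 (log2 fold change -0.73, SE 0.16, adjusted p = 0.000409). HIST1H1E, HIST1H2BK, HIST1H2AJ and HIST1H2BC also fell, by 0.59, 0.49, 0.68 and 0.82, and of these 6 members the libraries of HIST1H2BC overlapped. Over all genes tested, the groups did not overlap in 33.8%. The other 2 linker genes did not pass, with log2 fold changes of -0.20 for HIST1H1B and 0.05 for HIST1H1A. The members' median was -0.48 against 0.011 over all genes tested. With the fold limit, the count was 1 without control replicate 1 or olaparib replicate 1 and 2 without olaparib replicate 3.

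CDDP alone moved HIST1H4C and the H2B gene HIST1H2BK in opposite directions in MDA-MB-468. With 1 µM CDDP 1 member was called lower, where 1.13% of genes were called higher and 0.699% lower. HIST1H2BK had 447.8, 480.4 and 483.3 in control cells and 217.2, 230.6 and 244.5 with 1 µM CDDP (log2 fold change -1.03, SE 0.11, limma adjusted p = 9.16e-11). The groups were far apart, but the fold was close to the limit and the call was lost without CDDP replicate 1, which left a count of 0. The count was 2 without control replicate 1, control replicate 2 or CDDP replicate 3. HIST1H4C rose by 0.48 (SE 0.06, adjusted p = 8.27e-09) and HIST1H1D fell by 0.98 (SE 0.16, adjusted p = 4.89e-06).

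At 2.5 µM CDDP 1 member was called lower and none higher, where 1.64% of genes were called higher and 0.953% lower. It was HIST1H3D, an H3 gene with 20.6, 10.5 and 22.5 in control cells and 1.98, 3.24 and 3.32 with CDDP, the latter from 3 to 5 reads (limma adjusted p = 0.00419). HIST1H4C rose by 0.69 (SE 0.06, adjusted p = 1.93e-13), and HIST1H2BK and HIST1H1D fell by 0.82 and 0.83 (adjusted p = 3.28e-08 and 5.61e-05), under the fold limit. HIST1H1C had 896.0, 857.6 and 593.9, which overlapped the control libraries. Without CDDP replicate 1 the count was 2.

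Adding 2.5 µM CDDP to olaparib raised 5 of the 34 members in MDA-MB-468 and called none lower, where 1.28% of genes were called higher and 0.638% lower. HIST2H2AC, an H2A gene, went from 74.6, 61.8 and 55.8 to 134.1, 139.9 and 148.9 (log2 fold change 1.13, SE 0.19, limma adjusted p = 8.22e-06). HIST1H2AJ went from 46.1, 48.5 and 55.1 to 80.1, 117.3 and 151.7 (log2 fold change 1.16, SE 0.23, adjusted p = 8.37e-05), under a fold of 2 without replicate 3 of the combination. HIST2H2AB, HIST1H2BF and HIST1H2AH rose by 1.60, 1.71 and 1.29 from 7 to 17 reads per olaparib-treated library. None of these 5 members overlapped between the groups, as in 34.9% of all genes tested. By adjusted p alone 12 members were higher and 1 lower, where 10.1% of genes were higher and 13.1% lower. The linker genes HIST1H1C, HIST1H1E and HIST1H1A rose by 0.88, 0.79 and 0.60, and the member that fell was HIST1H2BK, by 0.78 (SE 0.11, adjusted p = 6.83e-08). Without olaparib replicate 1 only 2 members were called.

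Against 2.5 µM CDDP alone the combination called no member by limma in MDA-MB-468, where 0.131% of genes were called higher and 0.307% lower. At an unadjusted p under 0.05 there were 7 members, and edgeR and DESeq2 each called 0. Of the 13012 genes tested, 1551 had an adjusted p at most 0.05, so the unadjusted count over all genes was no smaller. HIST2H2AC was higher by 0.68 (SE 0.19, adjusted p = 0.0127) and HIST1H2BK lower by 0.46 (SE 0.11, adjusted p = 0.00198). The count was 1 without CDDP replicate 2 or replicate 1 of the combination.

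Resistant MDA-MB-468 cells had lower levels of several members than olaparib-treated parental cells. Of 34 members, 6 were called lower and none higher, where 7.13% of genes were called higher and 7.12% lower. By adjusted p alone 12 were lower and none higher, where 23.6% of genes were higher and 27.9% lower. HIST1H1B, a linker histone gene, had 202.2, 227.3 and 283.9 with olaparib and 119.1, 108.1 and 105.8 in OlaR cells (log2 fold change -1.08, SE 0.14, limma adjusted p = 1.11e-08), under a fold of 2 without olaparib replicate 3. HIST1H2BD had 117.3, 153.8 and 150.1 against 67.0, 69.9 and 70.3 (log2 fold change -1.003, SE 0.19, adjusted p = 1.21e-05), and HIST1H4L had 52.3, 38.0 and 46.8 against 7.81, 14.9 and 28.1 (log2 fold change -1.53, SE 0.37, adjusted p = 0.000447). None of the 3 overlapped between the groups, as in 56.2% of all genes tested. HIST2H2BC was called with overlapping libraries. The H3 genes HIST1H3G and HIST1H3D were called with 1 to 3 and 1 to 2 reads in each OlaR library, against 23 to 40 and 12 to 16 reads with olaparib, so no fold is given. HIST1H4C fell by 0.66 (SE 0.06, adjusted p = 6.68e-14), HIST1H1C by 0.63 and HIST1H2BK by 0.52, under the fold limit. The members' median was -0.372 against -0.03 over all genes tested. Without olaparib replicate 3 the count was 3.

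Adding 2.5 µM CDDP to resistant MDA-MB-468 cells called 3 members lower and none higher, where 0.738% of genes were called higher and 1.65% lower. By adjusted p alone 7 were lower and none higher, where 7.43% of genes were higher and 11.2% lower. HIST1H1D went from 160.2, 116.1 and 119.4 to 61.3, 64.1 and 57 (log2 fold change -1.09, SE 0.16, limma adjusted p = 6.36e-07) and was under a fold of 2 without OlaR replicate 1. HIST1H1B fell by 0.51 and HIST1H1C by 0.36, HIST1H2BD by 0.80 and HIST1H4C by 0.47 (SE 0.06, adjusted p = 2.42e-08). HIST1H3G had 0 reads in all 3 CDDP libraries and 1 to 3 reads in the OlaR libraries, and HIST2H2BF had 0 to 1 against 4 to 11 reads, so these calls give no fold. The median of the members was -0.341 against -0.004 over all genes tested. The count was 0 without OlaR replicate 1 and 1 without replicate 2 of OlaR with CDDP.

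The interaction term in MDA-MB-468 placed 10 members lower and 1 higher in the CDDP response of OlaR cells than in that of olaparib-treated parental cells, where 7.58% of genes were higher and 7.47% lower. All 5 linker genes were among the 10. HIST1H1C rose by 0.88 with CDDP under olaparib and fell by 0.36 in OlaR cells, a difference of -1.24 (SE 0.17, limma adjusted p = 3.53e-07), and HIST1H4C differed by -0.80 (SE 0.08, adjusted p = 3.11e-10) and HIST2H2AC by -1.44 (SE 0.27, adjusted p = 0.000125). HIST1H2BK was the 1 member with a higher value, 0.71 (SE 0.15, adjusted p = 0.0006), since it fell with CDDP under olaparib and had 217.6, 216.6 and 227.2 in OlaR cells with CDDP against 213.3, 277.1 and 212.8 without.

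**Figure D3:**
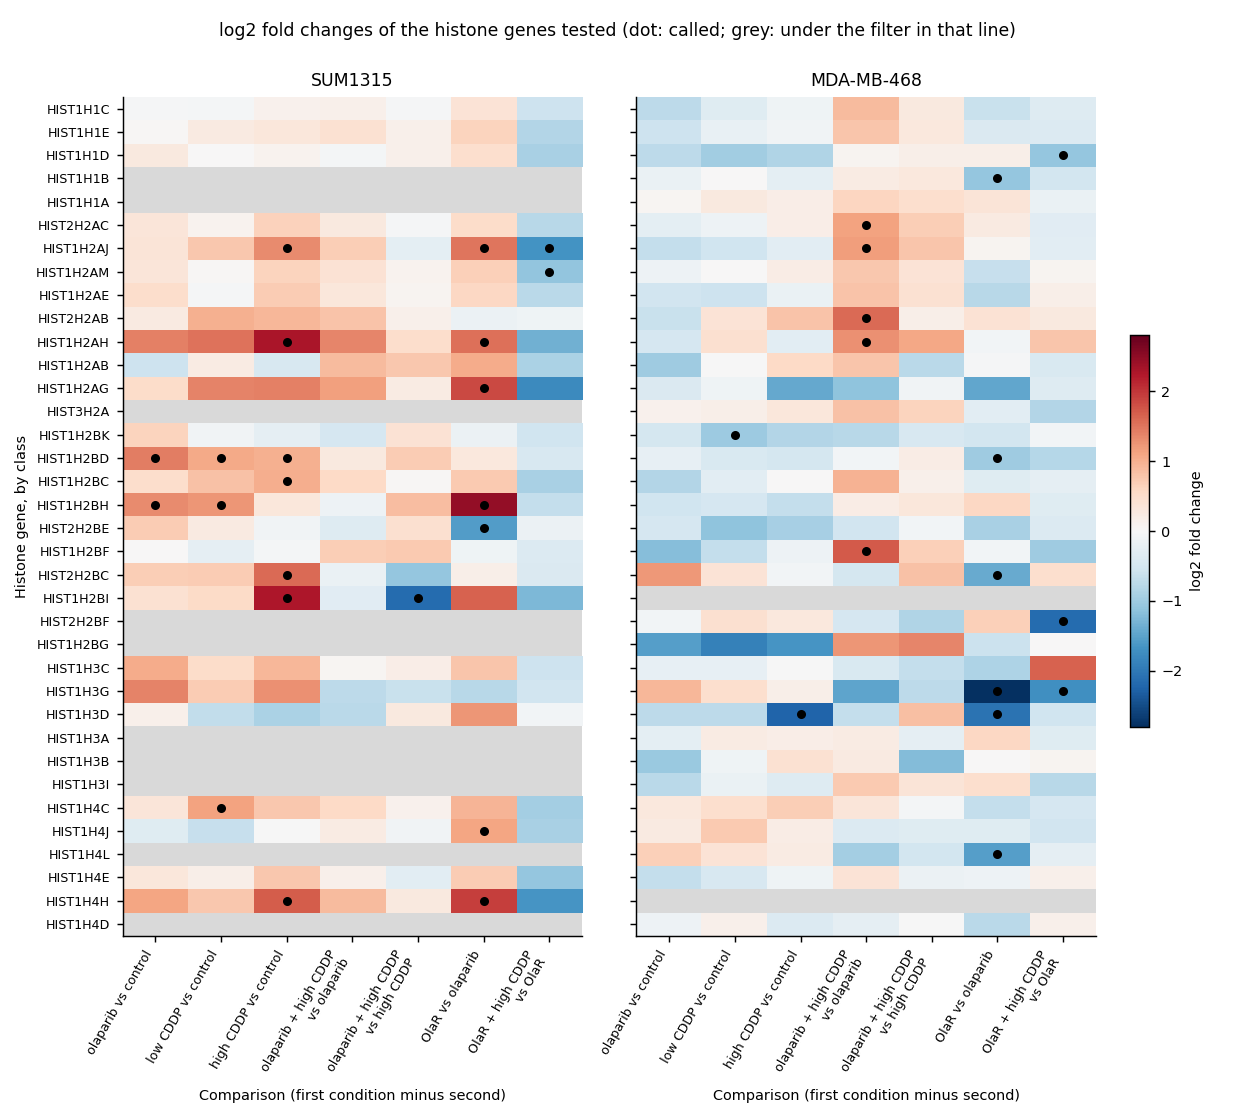
Log2 fold changes (color) of the members tested in either line, in rows by class, for 7 comparisons in SUM1315 (left) and MDA-MB-468 (right), with a dot where a member was called and grey where it was under the filter. In the column of OlaR cells with higher-dose CDDP every SUM1315 member tested is negative, and OlaR cells against olaparib are mostly positive in SUM1315 and mostly negative in MDA-MB-468, while values of low genes such as HIST1H3G depend on the added 1.

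The lines were then compared by the difference of their within-line changes, fitted over all 54 libraries, in which 38 members passed the filter. That filter can be passed through 1 line alone, and 24 members passed within each line. For OlaR cells against olaparib, 15 members had a higher change in SUM1315 and none a lower one at adjusted p at most 0.05, where 20.3% of 14460 genes were higher and 21.4% lower. The members' median difference was 1.045 on the log2 scale against -0.024 over all genes. HIST1H4C rose by 0.96 in SUM1315 and fell by 0.66 in MDA-MB-468, a difference of 1.62 (SE 0.14, limma adjusted p = 1.64e-13). HIST1H2BH differed by 1.89 (SE 0.49, adjusted p = 0.00162), HIST1H2AJ by 1.41 (SE 0.39, adjusted p = 0.00275), and HIST1H1C by 1.00 (SE 0.27, adjusted p = 0.00215). For HIST1H1B and HIST1H4L, also among the 15, every SUM1315 library compared was at 0, so their difference is the fall in MDA-MB-468 alone. Such a fall could only count as a higher change in SUM1315. The count of 15 and the median include both genes, which say nothing about SUM1315.

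For higher-dose CDDP against control, 8 members had a higher change in SUM1315 and none a lower one, where 13.7% of genes were higher and 13.9% lower. HIST1H2AJ differed by 1.61 (SE 0.39, limma adjusted p = 0.00125) and HIST1H2BD by 1.499 (SE 0.37, adjusted p = 0.00179), each rising in SUM1315 and having a negative value in MDA-MB-468. HIST1H2BK and HIST1H1D differed by 0.57 and 0.92 because they fell in MDA-MB-468. HIST1H4C rose in both lines, by 0.76 and 0.69, and was not among the 8. The CDDP doses differed between the lines, and without MDA-MB-468 replicate 3 at 2.5 µM the count was 5.

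**Figure D4:**
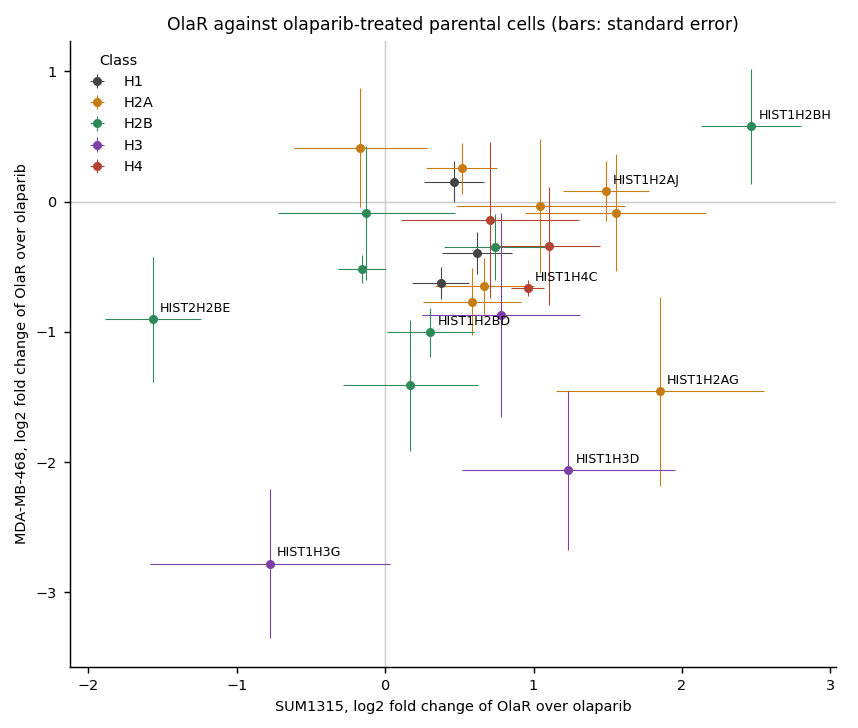
Log2 fold change of OlaR cells over olaparib-treated parental cells in MDA-MB-468 (vertical) against SUM1315 (horizontal), for the 24 members past the filter in both lines, with standard errors as bars and class as color. HIST1H4C lies at 0.96 and -0.66, HIST1H2BH at the far right, and HIST2H2BE and HIST1H3G to the left of 0.

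Both lines read most HIST1 members, but a stretch of 4 neighboring genes was read in MDA-MB-468 almost alone. The neighboring genes HIST1H2AL, HIST1H1B, HIST1H3I and HIST1H4L, at chr6:27865317-27873534 in GRCh38 (8218 bases), held 7 reads in all 27 SUM1315 libraries together and 8246 in the 27 MDA-MB-468 libraries. HIST1H1B had 1 and 6894 reads, HIST1H4L 0 and 972, HIST1H3I 6 and 301, and HIST1H2AL 0 and 79. A count of 0 allows up to 3 reads over those libraries. The genes on either side were read in both lines, HIST1H2BN with 78 and 68 reads and HIST1H3J with 26 and 67. Elsewhere in the cluster HIST1H1A had 4 reads in SUM1315 and 3495 in MDA-MB-468, and HIST1H3A had 41 and 324. These are descriptions, since the lines may lie in different sequencing batches.

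**Figure D5:**
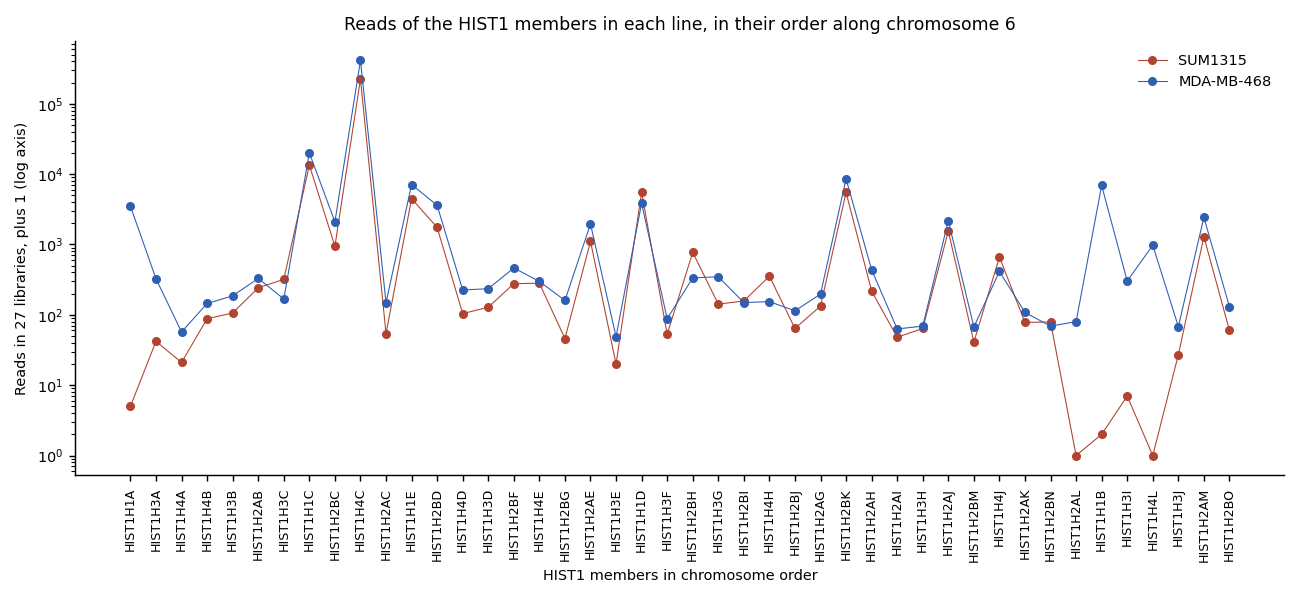
Reads of the 44 HIST1 members summed over the 27 libraries of each line, plus 1 (log axis), in their order along chromosome 6. The lines run together over most members, and SUM1315 drops to between 0 and 6 reads over HIST1H2AL, HIST1H1B, HIST1H3I and HIST1H4L and to 4 reads at HIST1H1A.

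Other genes of the pathway were read beside the members in 4 lists, each chosen by function with earlier results of these data known. The first was the machinery that transcribes and processes histone mRNA, of which 22 genes were tested in each line. With the fold limit 0 were called with higher-dose CDDP or in OlaR cells against olaparib in either line. By adjusted p alone, 9 were higher and 4 lower with 4 µM CDDP in SUM1315, with ERI1 (0.79) and CASP8AP2 (0.73) among the higher ones, where 22.2% of genes were higher and 21.7% lower. In OlaR cells 9 were higher and 5 lower in SUM1315, where 21.6% of genes were higher and 25.7% lower, and 4 were higher and 9 lower in MDA-MB-468, where the shares were 23.6% and 27.9%. SLBP, which binds the stem-loop, rose by 0.85 with 4 µM CDDP in SUM1315 and by 0.67 in OlaR SUM1315 cells, both by adjusted p. ZNF473, a factor of histone pre-mRNA cleavage, fell by 1.29 with olaparib in SUM1315 (SE 0.22, limma adjusted p = 2.19e-05) and was higher by 1.11 when 4 µM CDDP was added. With olaparib 1 of the 22 was called lower, a share near the 4.36% of all genes. With CDDP added 1 of the 22 was called higher, where 0.845% of genes were.

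Histones outside the clusters, most of whose messages carry poly(A) tails, made a list of which 10 genes were tested for SUM1315 cells and 11 for MDA-MB-468 cells. With 4 µM CDDP in SUM1315 2 were called higher and none lower, where 7.24% of genes were called higher and 8.16% lower: H2AFX rose by 1.69 (SE 0.12, limma adjusted p = 3.34e-13) and CENPA, the centromeric H3 variant, by 1.24. In MDA-MB-468 H1F0, a replication-independent linker histone, fell by 1.55 with olaparib, by 1.76 with 1 µM and by 1.31 with 2.5 µM CDDP. It was the 1 of 11 called lower in each, where 1.08%, 0.699% and 0.953% of genes were. By adjusted p 4 were higher and 2 lower with olaparib (median 0.165), where 12.4% and 9.11% of genes were. With 1 µM CDDP 0 were higher and 2 lower (median 0.005), where 10.6% and 9.41% of genes were. With 2.5 µM 2 were higher and 3 lower (median 0.13), where 13.3% and 11.8% were. In OlaR MDA-MB-468 cells 9 of 11 were lower by adjusted p and none higher, where 27.9% of genes were lower. With the fold limit 2 were called lower, where 7.12% of genes were: H2AFY2 fell by 1.03, and H3F3C was near the floor, with means of 1.63 ± 0.618 in OlaR cells and 8.11 ± 6.91 with olaparib (SD, n = 3, limma adjusted p = 0.0494). By the interaction term in MDA-MB-468, 2 were higher and 2 lower, where 7.58% and 7.47% of genes were. The lower ones were H1F0 (-0.74, SE 0.13, limma adjusted p = 5.89e-05) and H2AFX (-0.63). In SUM1315 1 was higher and 2 lower, where 1.99% and 4.41% of genes were. The lower ones were again H1F0 (-1.20, SE 0.13, limma adjusted p = 7.91e-07) and H2AFX (-0.54).

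Histone chaperones, which carry histones to DNA, were tested for 13 genes. In SUM1315 with 4 µM CDDP the replication chaperones ASF1B, CHAF1A and CHAF1B rose by 1.47, 1.51 and 1.42, which is 3 of 13 where 7.24% of genes were called higher, and no chaperone was called lower. CHAF1A was also higher by 1.39 in OlaR SUM1315 cells, where ATRX fell by 1.43. These were 1 of 13 in each direction, shares near the 7.52% of all genes called higher and 9.06% called lower there. MDA-MB-468 had 1 called higher with 2.5 µM CDDP, ASF1B at 1.07, where 1.64% of genes were, and 1 called lower in OlaR cells, NAP1L4 at -1.03, a share near the 7.12% of all genes called lower there.

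Genes of S phase, such as the MCM helicase, PCNA and the ribonucleotide reductase subunits, were tested for 25 in SUM1315 and 26 in MDA-MB-468. With 4 µM CDDP in SUM1315 16 were called higher and none lower (median 1.244), among them RRM2 by 2.48 and PCNA by 1.94, where 7.24% of genes were called higher. In MDA-MB-468 with 2.5 µM CDDP 9 were called higher (median 0.806), where 1.64% of genes were. In OlaR SUM1315 cells 10 were called higher and none lower, where 7.52% of genes were called higher. In OlaR MDA-MB-468 cells 1 was called higher and 1 lower, where 7.13% of genes were called higher and 7.12% lower. By adjusted p 15 were higher and 4 lower there (median 0.343), where 23.6% of genes were higher and 27.9% lower. With higher-dose CDDP in OlaR cells, by adjusted p, 12 of 25 S phase genes were higher and none lower in SUM1315 (median 0.345), where 7.13% of genes were higher and 9.61% lower. In MDA-MB-468 18 of 26 were higher and none lower (median 0.335), where 7.43% of genes were higher and 11.2% lower. The histone members that passed in the same comparisons, 8 and 7, were all lower. With the fold limit only CCNE2 in SUM1315 was called, at 1.16. What part the cell cycle had in the histone values was not tested.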

How the data were processed

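Total RNA from both cell lines was made into oligo(dT)-primed 3′ libraries (QuantSeq FWD), sequenced in 50-base reads. Per the labels, the authors used CASAVA 1.8.2, FastQC, STAR, HTSeq and edgeR with hg38, and the annotation is not given in the sources used here. The authors deposited adjusted read counts, a signal made from counts by edgeR (pseudo-counts at a common library size of 5585170 with a common dispersion of 0.01039). The whole reads behind them were recovered for 100% of the 1483380 values (relative tolerance 1e-06), and gave the depth of each library and the count tests. The authors' tables of fold changes and p-values were not used. Rows whose names had turned into dates (27) and genes with no read (4082) were left as they were.

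Since the deposited values are not counts, the main test was limma 3.58.1 with trend in R 4.3.3 on log2(value + 1), 1 fit of 27 libraries per line and 1 of all 54 for differences between lines, keeping genes with 3 or more libraries at a value of 10 or above, with Benjamini-Hochberg adjustment over all genes tested. Interactions and differences between lines had no fold limit. Alternatives were no filter, a pseudocount of 5, a replicate block, edgeR 4.0.16 (quasi-likelihood) and DESeq2 1.42.0 on the recovered reads, leaving out each library, and no fold limit (for interactions, a log2 difference of at least 1). Replicates of a condition differed by more than sampling noise in all 54 pairs (chi-square per degree of freedom 1.586 to 20.58). Replicate numbers did not pair the samples. Scripts were tested on simulated data. Intervals and read limits cover counting error only.

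The members and lists were chosen with earlier results of these data known. Named were the 10 members of highest mean, the top member of each class and cluster, up to 4 called members in each direction per comparison whose groups did not overlap, the 3 of smallest p per interaction and the members next to the mean limit. Any further member given beside them, such as HIST1H1A, HIST1H4J or the genes of the stretch on chromosome 6, was chosen after its values were seen. Gene positions, transcripts and stem-loops are from the GENCODE annotation of GRCh38, and promoters are from RefSeq (GRCh38.p14).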

Additional observations from a re-analysis of the deposited data

Results flagged for a closer look

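Each value here is a test of a difference between 2 changes (limma, adjusted p at most 0.05), and what drew attention is that the changes themselves differed. No explanation was tested. The CDDP response of OlaR cells minus that of olaparib-treated parental cells in SUM1315 was -1.499 on the log2 scale for HIST1H4C, -2.36 for HIST1H2AJ and -1.25 for HIST1H1E. In MDA-MB-468 the same difference was -0.80 for HIST1H4C, -1.24 for HIST1H1C, -1.44 for HIST2H2AC and, in the other direction, 0.71 for HIST1H2BK. The change with higher-dose CDDP in SUM1315 minus that in MDA-MB-468 was 1.61 for HIST1H2AJ, 1.499 for HIST1H2BD and 2.57 for HIST1H2AH, the last on 0 to 6 reads in the SUM1315 control libraries. The change of OlaR over olaparib-treated cells in SUM1315 minus that in MDA-MB-468 was 1.62 for HIST1H4C, 1.89 for HIST1H2BH and 3.30 for HIST1H3D, the last on 1 to 2 reads in each OlaR MDA-MB-468 library, so that its size depends on the pseudocount.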

How the results depend on the processing

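Of 42 named member and comparison pairs, 21 kept their call under every alternative and no value changed sign. Leaving out 1 library kept the call in 277 of 324 fits, and the other alternatives in 190 of 210. Among the calls lost were those of HIST1H2BI, HIST1H2AG, HIST1H2AH and HIST1H4H in SUM1315.

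Counts of called members moved by over 1.5 times as follows. In SUM1315, olaparib gave 1 with a pseudocount of 5 and 4 with no fold limit, 2 µM CDDP 1 and 4 µM CDDP 4 with a pseudocount of 5. CDDP added to olaparib gave 1 with no fold limit, and olaparib added to CDDP gave 0 with no filter, with edgeR and with the replicate block. OlaR cells with 4 µM CDDP gave 1 with no filter and 8 with no fold limit, and the interaction 2 with no filter and 7 with DESeq2. In MDA-MB-468, olaparib gave 3 with edgeR, 3 with DESeq2 and 7 with no fold limit. For 1 µM CDDP it was 2 with a pseudocount of 5, 4 with edgeR, 3 with DESeq2 and 4 with no fold limit, and for 2.5 µM 2 with no filter and 5 with no fold limit. With no fold limit, CDDP added to olaparib gave 13, olaparib added to CDDP 3 and OlaR cells 12. OlaR cells with 2.5 µM CDDP gave 1 with no filter, edgeR or DESeq2 and 7 with no fold limit, and the interaction 7 with no filter and 7 with a log2 difference of at least 1. With no fold limit, 1 µM CDDP in MDA-MB-468 had 1 member higher and 3 lower, where 10.6% and 9.41% of genes were. With 2.5 µM, 1 was higher and 4 lower, where 13.3% and 11.8% of genes were. Olaparib added to CDDP there had 2 higher and 1 lower, where 4.63% and 7.29% were. For CDDP added to olaparib in SUM1315 the 1 member was higher, where 4.35% of genes were. Shares of all genes under the other alternatives, or with a library left out, are not given here. The cause of these moves was not tested.

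With 1 library left out, 30 of 132 counts moved by over 1.5 times. The counts ranged, in SUM1315, from 1 to 4 (olaparib), 1 to 5 (2 µM CDDP), 4 to 6 (4 µM CDDP), 0 to 0 (CDDP added to olaparib), 0 to 1 (olaparib added to CDDP), 4 to 7 (OlaR), 1 to 3 (OlaR with CDDP) and 2 to 4 (interaction). In MDA-MB-468 they ranged, in the same order, from 0 to 2, 0 to 2, 1 to 2, 2 to 7, 0 to 1, 3 to 7, 0 to 3 and 10 to 12. The differences between lines ranged from 5 to 9 for CDDP and from 12 to 17 for OlaR cells.

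Replicate numbers did not mark shared samples: deviations of same-numbered libraries correlated at -0.098 to 0.163 in SUM1315 and -0.047 to 0.043 in MDA-MB-468. With the replicate number as a block, 17 of 18 counts stayed within 1.5 times, all but the 0 above. Without the filter the median of all genes moved to -0.101 for 4 µM CDDP in SUM1315, where the members' median was 0.315. Of the 52 members, 16 passed the filter in neither line and could not be tested.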

Other observations

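The order of the 3 libraries within a condition was compared between members. HIST1H1C and HIST1H1E had their highest library in common in 12 of 18 conditions and their lowest in 12, HIST1H1C and HIST1H1D in 11 and 8, and HIST1H1E and HIST1H1D in 8 and 5. HIST1H4C, which is no linker gene, shared them in 10 and 6 conditions with HIST1H1C and likewise with HIST1H1E, and in 9 and 5 with HIST1H1D. HIST1H2BK shared them in 2 and 1 with HIST1H1C, 1 and 3 with HIST1H1E, 3 and 3 with HIST1H1D and 3 and 9 with HIST1H4C. In the 9 MDA-MB-468 conditions HIST1H1B shared them in 8 and 6 with HIST1H1C and in 5 and 5 with HIST1H1E. In SUM1315 with 2 µM CDDP, replicate 3 had 765.1 of HIST1H1C against 386.3 and 400.7, 265.1 of HIST1H1E against 145.1 and 131.5, and 282.7 of HIST1H1D against 147.3 and 163.3, while HIST1H4C was lowest in that library, at 10180. With 3 libraries, unrelated orders would share an end in about 1 of 3 conditions, and several of the counts above are near or below that. These orders were noticed in the data and were not tested.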
